A study of Homo sapiens with 8 samples.

Results

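The 10 genes described here are the EGR family (EGR1, EGR2, EGR3 and EGR4), the NR4A family (NR4A1, NR4A2 and NR4A3) and the activity-induced genes NPAS4, ARC and IER2. They were found by matching the 58721 Ensembl identifiers of the count files to GENCODE release 29, and all 10 were present. The genes were chosen by their membership of these families with earlier results known, among them the log2 changes with JSK591 in these libraries, in which NPAS4 and EGR2 were among the largest decreases in NGP. Their changes with treatment and between the lines are therefore given as a description, without a p-value, and a call by the fit over all genes is read only beside the share of all genes called.

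Messenger RNA was sequenced from 2 established human neuroblastoma cell lines, NGP and CHLA-20, after 6 days with a PRMT5 inhibitor or with the vehicle DMSO. PRMT5 is an arginine methyltransferase that modifies histones and splicing proteins by symmetric dimethylation. The 4 groups were NGP with JSK591, NGP with DMSO, CHLA-20 with JSK591 and CHLA-20 with DMSO, with 2 libraries each. Sample names give the inhibitor as JSK591, while the treatment protocol gives GSK591, with no concentration, and whether both names mean the same compound is not stated. NGP grew in RPMI1640 and CHLA-20 in IMEM with insulin, transferrin and selenite, both with fetal bovine serum, so that a difference between the lines is also a difference between media. Whether the replicates are separate cultures is not stated, and the spread between them may be technical.

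Immediate-early genes are transcribed within minutes of a stimulus without new protein synthesis, and their messages are short-lived. Growth factors act on many of them through the kinases RAF, MEK and ERK, which phosphorylate ternary complex factors bound with SRF at CArG boxes. Depolarisation, calcium entry and cyclic AMP act through CREB at cyclic AMP response elements (CREs). EGR proteins are zinc finger transcription factors and NR4A proteins are orphan nuclear receptors. NPAS4 is a transcription factor of neurons induced by calcium entry, and ARC is a synaptic protein that takes part in the removal of glutamate receptors from the membrane. In rat pheochromocytoma cells, which like neuroblastoma come from the sympathoadrenal lineage, nerve growth factor induces EGR1 and NR4A1.

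Libraries held 33188542 to 34914902 counts assigned to genes, and a count of 0 in a library allows up to 3 counts, at most 0.0904 CPM (normalised read count, scaled to library size by TMM). Of 10 neuroblastoma markers, 7 reached 1 CPM in NGP and 9 in CHLA-20. TH and DBH, enzymes of noradrenaline synthesis, were below 1 CPM in NGP, and CHGA was at 0 in both DMSO groups and in CHLA-20 with JSK591. The 8 blood markers summed to 0.238 to 0.462 CPM in every group and the 5 endothelial markers to at most 0.976 CPM. The 6 epithelial markers summed to 2.08 to 2.29 CPM in NGP with JSK591, against 2.83 to 3.36 CPM in NGP with DMSO, and to 5.08 to 5.38 CPM in CHLA-20 with JSK591, against 5.3 to 5.39 CPM in CHLA-20 with DMSO. The 11 markers of fibroblasts and Schwann cells, which include COL1A1, PDGFRA and THY1, were all above 0 and summed to 811 to 847 CPM in NGP with JSK591, against 721 to 736 CPM in NGP with DMSO. In CHLA-20 that sum was 425 to 438 CPM with JSK591, against 473 to 475 CPM with DMSO. The part of these markers in the results below was not tested. PRMT5 mRNA did not pass the test in either line, at 59.8 CPM in NGP with JSK591 against 62.2 CPM with DMSO, and at 48.2 CPM in CHLA-20 with JSK591 against 45.7 CPM with DMSO.

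The promoters of 4 members are printed because they differ in the motifs named above and because their genes differ in the size of their decrease in NGP. Each window runs from 250 bases before to 50 bases after an annotated start, 5′ to 3′ on the gene's strand, from the RefSeq annotation of GRCh38.p14. Capitals mark CArG boxes and CRE cores, the letters TGACG, read as CGTCA where they lie on the other strand. The EGR1 window is chr5:138465229-138465528 on the plus strand, the EGR2 window is chr10:62816317-62816616 on the minus strand, the NPAS4 window is chr11:66420785-66421084 on the plus strand, and the NR4A1 window is chr12:52037465-52037764 on the plus strand.
EGR1: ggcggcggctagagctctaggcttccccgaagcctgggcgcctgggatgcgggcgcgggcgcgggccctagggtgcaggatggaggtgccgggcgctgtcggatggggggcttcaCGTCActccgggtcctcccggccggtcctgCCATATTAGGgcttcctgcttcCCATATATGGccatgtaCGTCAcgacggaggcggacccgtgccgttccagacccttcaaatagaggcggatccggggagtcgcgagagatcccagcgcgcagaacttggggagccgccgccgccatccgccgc
EGR2: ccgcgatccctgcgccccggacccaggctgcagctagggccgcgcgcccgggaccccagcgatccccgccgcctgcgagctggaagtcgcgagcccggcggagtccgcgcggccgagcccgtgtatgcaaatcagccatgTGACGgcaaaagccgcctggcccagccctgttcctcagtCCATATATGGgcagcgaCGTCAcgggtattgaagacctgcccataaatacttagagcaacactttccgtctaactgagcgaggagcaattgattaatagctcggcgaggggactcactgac
NPAS4: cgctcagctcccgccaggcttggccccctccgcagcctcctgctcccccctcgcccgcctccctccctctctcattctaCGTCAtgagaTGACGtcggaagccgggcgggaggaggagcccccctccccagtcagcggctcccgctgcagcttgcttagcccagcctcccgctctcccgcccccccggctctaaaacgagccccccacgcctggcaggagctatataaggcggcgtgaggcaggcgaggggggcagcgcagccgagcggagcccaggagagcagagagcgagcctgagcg
NR4A1: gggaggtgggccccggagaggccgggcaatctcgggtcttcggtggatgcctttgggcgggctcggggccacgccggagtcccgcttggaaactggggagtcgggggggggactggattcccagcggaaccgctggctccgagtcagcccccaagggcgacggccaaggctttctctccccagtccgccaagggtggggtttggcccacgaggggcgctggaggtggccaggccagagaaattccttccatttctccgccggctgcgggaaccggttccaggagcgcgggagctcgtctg
With the start counted as 0, the EGR1 window held CArG boxes at -105 to -96 and at -83 to -74, between CRE cores at -135 to -131 and at -66 to -62. The EGR2 window held a CArG box at -71 to -62 between CRE cores at -110 to -106 and at -54 to -50. The NPAS4 window held CRE cores at -171 to -167 and at -161 to -157 and no CArG box, and the NR4A1 window held neither motif. Over all 35116 windows of this length, 24.55% held a CRE core and 1.29% a CArG box.

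Entries were found for 7 of the 10 genes. In the other windows, EGR4 held 2 CRE cores, NR4A3 held 4 and IER2 held 1. The other NPAS4 window overlaps the one printed and holds the same CRE cores, and the other EGR2 windows and the other NR4A1 window held none. The full CRE, TGACGTCA, was in none of the windows of the 7 genes and in 1.85% of all windows. These are matches of letters, and no binding was measured. A window shows only the annotated start it surrounds, so motifs at other starts of a gene, as of NR4A1, would be missed. For the genes not printed, the log2 change with JSK591 in NGP (± SE) was -1.61 ± 0.44 for EGR4, -0.13 ± 0.28 for NR4A3 and -0.65 ± 0.053 for IER2. A link between the motifs and the changes with JSK591 was not tested. The printed windows were picked with both known, so no link can be read from them.

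**Figure D1:**
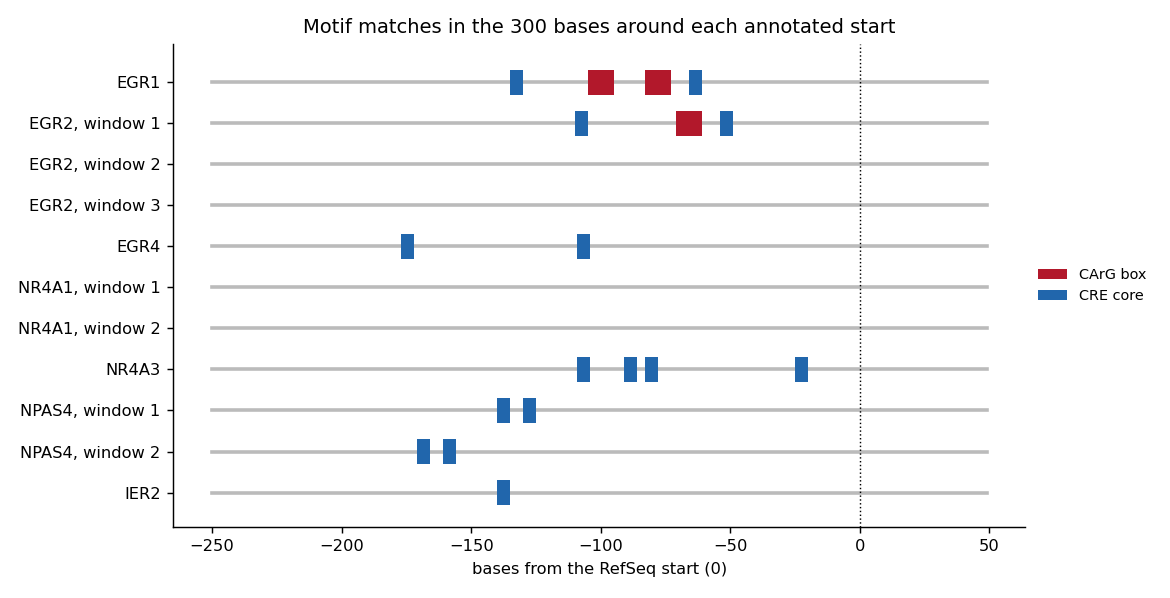
Positions of CArG boxes (red) and CRE cores (blue) in each RefSeq promoter window of the 7 members with an entry; the horizontal axis is the distance in bases from the annotated start at 0. EGR1 and one EGR2 window are the windows with CArG boxes, and NR4A3 has 4 CRE cores.

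In NGP, EGR1 was the most abundant of the 10 messages, and it and ARC were lower with JSK591 than with DMSO by more than the spread between libraries. Levels of different genes are compared per length, as TPM (length-scaled transcript abundance) computed from the counts and the summed exon length of each gene. In NGP with JSK591, EGR1 averaged 95.6 ± 5.3 TPM, ARC 79.8 ± 2.9 TPM and IER2 30.1 ± 0.66 TPM (SD, n = 2). In NGP with DMSO, EGR1 averaged 220 ± 2.3 TPM, ARC 180 ± 8.0 TPM and IER2 48.0 ± 2.6 TPM (SD, n = 2). These 3 kept their order in both NGP groups and did not overlap each other.

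Below them, the NGP order differed between the treatments. With JSK591 the order was NR4A1 (6.7 TPM), NR4A2 (4.64 TPM), EGR2 (1.65 TPM), NPAS4 (0.471 TPM), NR4A3 (0.42 TPM), EGR3 (0.318 TPM) and EGR4 (0.271 TPM). With DMSO it was NPAS4 (9.16 TPM), NR4A1 (7.67 TPM), NR4A2 (6.34 TPM), EGR2 (4.81 TPM), EGR3 (0.91 TPM), EGR4 (0.85 TPM) and NR4A3 (0.468 TPM). With JSK591, NPAS4 and NR4A3, NPAS4 and EGR3, NR4A3 and EGR3, and EGR3 and EGR4 overlapped between libraries, and with DMSO so did EGR3 and EGR4. NPAS4 stood below NR4A1, NR4A2 and EGR2 with JSK591 and above them with DMSO.

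In CHLA-20 the order was ARC, IER2, EGR1 and NR4A1 in both groups, and these 4 did not overlap each other. With JSK591 these averaged 31.4, 26.3, 18.6 and 6.67 TPM, and with DMSO 39.8, 32.8, 22.3 and 8.3 TPM. IER2 shares 30.8% of its exonic bases with a gene on the opposite strand. Reads left out there would lower its TPM, so the order of ARC and IER2 is less certain. The other 6 genes averaged at most 0.139 TPM with JSK591 and at most 0.216 TPM with DMSO. All 10 genes passed the filter on low counts, but EGR2, EGR3, EGR4, NR4A2 and NPAS4 passed only through NGP, so these 5 had to differ between the lines.

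**Figure D2:**
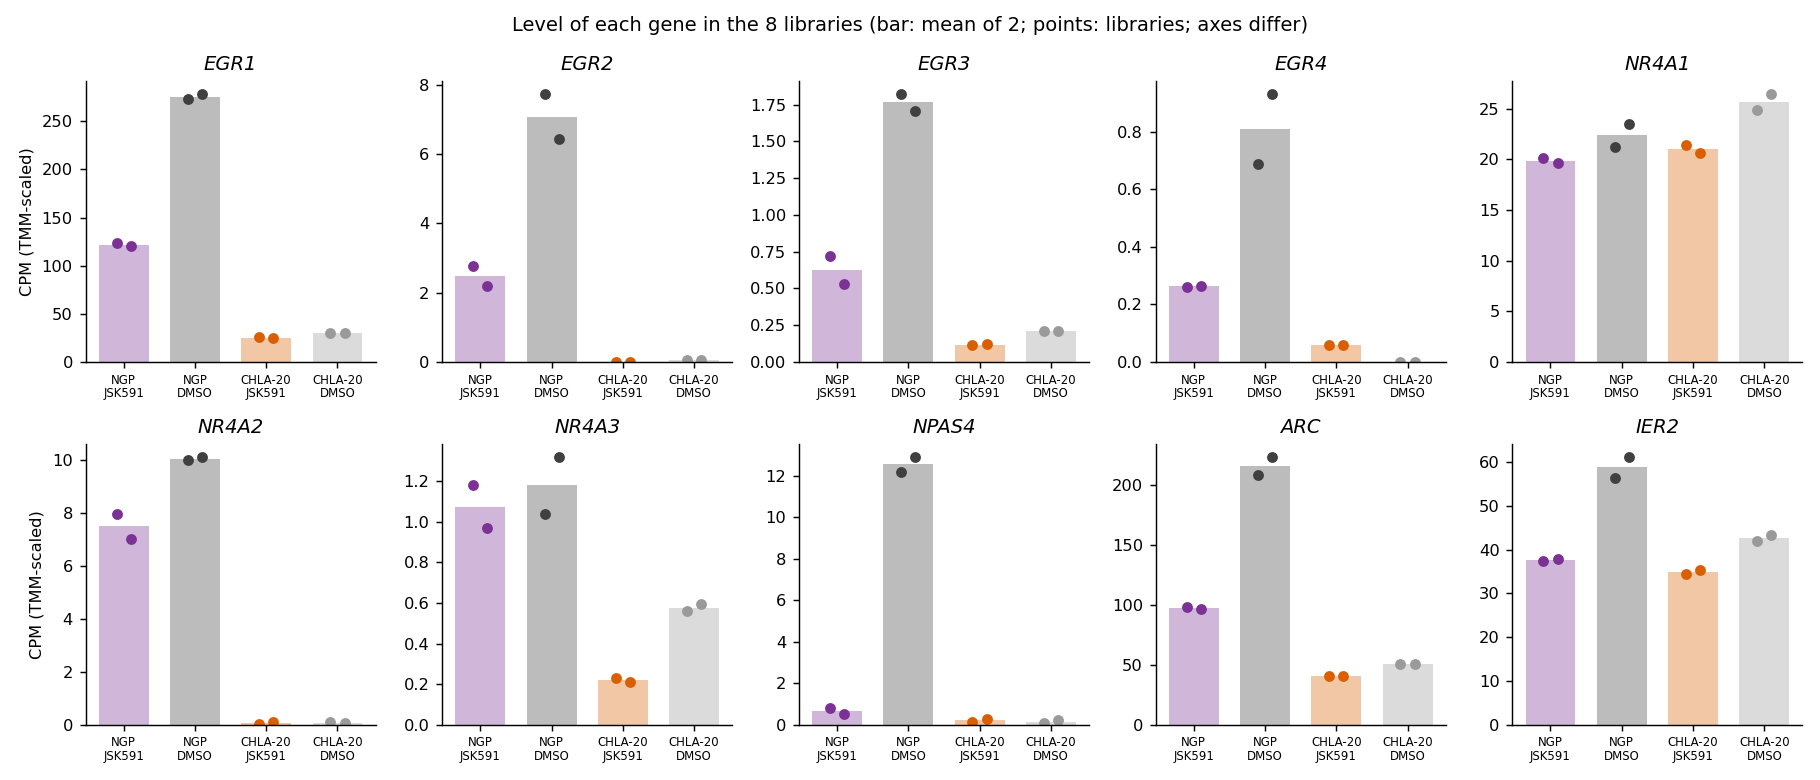
Level of each of the 10 genes in the 8 libraries, in CPM on linear axes that differ between the genes, with JSK591 left of DMSO in each line; bars are means of 2 libraries and points are libraries. EGR1 and ARC are the highest in NGP, and NPAS4 is at 0.5 and 0.808 CPM in NGP with JSK591 against 12.2 and 12.9 CPM with DMSO.

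EGR1, a zinc finger factor induced by serum and growth factors, was lower with JSK591 in both lines, and the decrease was larger in NGP. Its gene (ENSG00000120738.7) lies on chromosome 5, 138465490 to 138469315 in GRCh38, plus strand. EGR1 had 124 and 120 CPM in NGP with JSK591, against 273 and 278 CPM in NGP with DMSO. It had 26.0 and 24.4 CPM in CHLA-20 with JSK591, against 29.6 and 29.7 CPM in CHLA-20 with DMSO. In neither line did the groups overlap, and the treated NGP libraries still stood above every CHLA-20 library. The change was -1.18 ± 0.040 on the log2 scale in NGP, or 0.443 times the DMSO level, and -0.23 ± 0.057 in CHLA-20 (edgeR estimate ± SE, n = 2 a group). The SE is approximate, worked back as the absolute log2 change divided by the square root of F from the quasi-likelihood test. For values given with DESeq2 it is the SE of DESeq2 itself. In bulk RNA, fewer cells that express a gene and less of its RNA per cell cannot be told apart.

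EGR2, known for its part in hindbrain patterning and in the myelination of Schwann cells (ENSG00000122877.15, chromosome 10, 62811996 to 62919900, minus strand), was counted mainly in NGP. It had 2.77 and 2.18 CPM (96 and 74 counts) in NGP with JSK591, against 7.72 and 6.44 CPM (259 and 215 counts) in NGP with DMSO. The groups did not overlap, and the change was -1.52 ± 0.16. CHLA-20 had 0 and 0 counts of EGR2 with JSK591, against 2 and 2 counts with DMSO, which is too few for a fold change.

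EGR3, known for its part in muscle spindle development and in memory (ENSG00000179388.8, chromosome 8), had 25 and 18 counts in NGP with JSK591, against 61 and 57 counts in NGP with DMSO. This is 0.722 and 0.529 CPM with JSK591, against 1.82 and 1.71 CPM with DMSO, a change of -1.49 ± 0.30 with no overlap. CHLA-20 libraries held 4 and 4 counts with JSK591, against 7 and 7 counts with DMSO, and the change of -0.80 ± 0.66 did not pass. EGR3 shares 3.4% of its exonic bases with AC055854.1 on the opposite strand.

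EGR4, a further zinc finger factor of the family (ENSG00000135625.7, chromosome 2, 73290929 to 73293705, minus strand), had 9 and 9 counts in NGP with JSK591, against 23 and 31 counts in NGP with DMSO. Its change in NGP was -1.61 ± 0.44, and without the second NGP DMSO library it was -1.39 ± 0.61 and no longer passed. EGR4 passed the filter on low counts only through NGP with DMSO, the group where it is high, which favoured a lower value with JSK591, so its call adds nothing. In CHLA-20 it had 2 and 2 counts with JSK591, against 0 and 0 counts with DMSO, and no fold change is given. The low counts of EGR3 and EGR4 leave their decrease in NGP less precise than that of EGR1.

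EGR1 made up nearly the whole family in every group, at 97.7% of the summed EGR TPM in NGP with JSK591, against 97.1% in NGP with DMSO, and at 99.4% in CHLA-20 with either treatment. EGR2 made up 1.68% in NGP with JSK591, against 2.12% in NGP with DMSO. The family sum was 97.8 ± 5.7 TPM in NGP with JSK591, against 227 ± 1.8 TPM in NGP with DMSO. In CHLA-20 it was 18.7 ± 1.0 TPM with JSK591, against 22.5 ± 0.54 TPM with DMSO (SD, n = 2 each).

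The log2 changes of the NR4A genes in NGP lay between -0.42 and -0.13, nearer to 0 than those of the EGR genes, which lay between -1.61 and -1.18. NR4A1, or Nur77, a nuclear receptor that takes part in cell death and in steroid gene control (ENSG00000123358.19, chromosome 12, 52022832 to 52059507, plus strand), was between 19.6 and 26.4 CPM in all 8 libraries. It had 20.1 and 19.6 CPM in NGP with JSK591, against 21.2 and 23.5 CPM in NGP with DMSO. In CHLA-20 it had 21.4 and 20.6 CPM with JSK591, against 24.9 and 26.4 CPM with DMSO. The groups did not overlap in either line, but the change of -0.17 ± 0.069 in NGP did not pass, while that of -0.29 ± 0.067 in CHLA-20 did. The NGP change lay at the threshold, and it passed with the median ratio scaling of DESeq2 (-0.18 ± 0.069), without the first CHLA-20 DMSO library (-0.17 ± 0.070), without the second (-0.19 ± 0.070) and without the first NGP DMSO library (-0.27 ± 0.081). It was smaller without the second NGP DMSO library (-0.11 ± 0.083) and without the second NGP JSK591 library (-0.15 ± 0.086), and did not pass with DESeq2 itself (-0.18 ± 0.10). NR4A1 shares 10.3% of its exonic bases with AC025259.3 on the opposite strand, which had at most 7 counts in a library.

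NR4A2, or Nurr1, which is needed for the development of dopamine neurons (ENSG00000153234.13, chromosome 2, 156324432 to 156342348, minus strand), was present in NGP and near the counting floor in CHLA-20. It had 7.97 and 7.0 CPM in NGP with JSK591, against 9.99 and 10.1 CPM in NGP with DMSO. The change was -0.42 ± 0.11, or 0.745 times the DMSO level. It did not pass without the second NGP JSK591 library (-0.33 ± 0.13) or with DESeq2 (-0.44 ± 0.20). CHLA-20 cells gave 1 and 3 counts with JSK591, against 3 and 2 counts with DMSO.

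NR4A3, or NOR-1 (ENSG00000119508.17, chromosome 9, 99821855 to 99866891, plus strand), is the one member that fell in CHLA-20 and whose groups overlapped in NGP. In CHLA-20 it had 8 and 7 counts (0.231 and 0.208 CPM) with JSK591, against 19 and 20 counts (0.562 and 0.593 CPM) with DMSO, a change of -1.38 ± 0.45. That change did not pass with DESeq2 (-1.39 ± 0.61), nor without the second CHLA-20 DMSO library (-1.32 ± 0.55), the first CHLA-20 JSK591 library (-1.46 ± 0.58) or the second (-1.31 ± 0.55). In NGP it had 1.18 and 0.97 CPM with JSK591, against 1.04 and 1.32 CPM with DMSO, and the change was -0.13 ± 0.28, which turned to 0.03 without the second NGP DMSO library and to 0.0065 without the second NGP JSK591 library. The test of the difference between these 2 changes did not pass (1.25 ± 0.54).

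The make-up of the NR4A family differed more between the lines than between the treatments, through NR4A2. That gene passed the filter on low counts only through NGP and had to differ between the lines, so the shares are a description. NR4A2 made up 39.4% of the summed NR4A TPM in NGP with JSK591, against 43.8% in NGP with DMSO. Its share in CHLA-20 was 0.513% with JSK591, against 0.519% with DMSO. NR4A1 made up 57.0% in NGP with JSK591, against 52.9% in NGP with DMSO. In CHLA-20 it made up 98.3% with JSK591, against 97.0% with DMSO.

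NPAS4, the neuronal transcription factor (ENSG00000174576.9, chromosome 11, 66421004 to 66426707, plus strand), had the largest decrease of the 10 genes in NGP. It had 28 and 17 counts in NGP with JSK591, against 409 and 430 counts in NGP with DMSO. This is 0.808 and 0.5 CPM with JSK591, against 12.2 and 12.9 CPM with DMSO, so the treated libraries lay far below the others. The change was -4.25 ± 0.18, or 0.0522 times the DMSO level. With DESeq2 it was -4.28 ± 0.31, with a larger SE. The CHLA-20 counts of NPAS4 were 5 and 9 with JSK591, against 2 and 7 with DMSO, and the groups overlapped. With JSK591 the level in NGP was 3.18 times that in CHLA-20, against 94.1 times with DMSO, where CHLA-20 had 9 counts in its 2 libraries.

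ARC (ENSG00000198576.3, chromosome 8) followed EGR1 closely in NGP. It had 97.7 and 96.6 CPM in NGP with JSK591, against 208 and 223 CPM in NGP with DMSO, and the change was -1.15 ± 0.041. In CHLA-20 it had 40.4 and 40.7 CPM with JSK591, against 50.2 and 50.4 CPM with DMSO, a change of -0.31 ± 0.050. The groups were apart in both lines.

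IER2, a nuclear protein induced by serum and growth factors (ENSG00000160888.6, chromosome 19, 13150415 to 13154908, plus strand), had 37.4 and 37.8 CPM in NGP with JSK591, against 56.5 and 61.2 CPM in NGP with DMSO. Its CHLA-20 levels were 34.5 and 35.3 CPM with JSK591, against 41.9 and 43.4 CPM with DMSO. The changes were -0.65 ± 0.053 in NGP and -0.29 ± 0.055 in CHLA-20, and the treated libraries were the lower ones in both. IER2 shares 30.8% of its exonic bases with AC011446.2 on the opposite strand, which had 0 counts in all libraries. Whether reads were counted by strand is not stated. Without strand, reads in bases shared by such overlapping pairs may have been left out as ambiguous.

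Counted over the 10 genes, 8 were lower and 0 higher in NGP at an adjusted p under 0.05, where 19.4% of the 19395 genes tested were called lower and 16.8% higher. Without EGR4, which entered the test only through NGP with DMSO, 7 were lower. NR4A1 and NR4A3 were the 2 that did not pass. In CHLA-20, 5 were lower and 0 higher (EGR1, NR4A1, NR4A3, ARC and IER2), where 22.4% of all genes tested were called lower and 16.9% higher. The median log2 change of the 10 genes was -1.16 in NGP, beside 0.00 over all genes tested, and -0.30 in CHLA-20, beside -0.02 over all genes tested. Since the members were chosen with such results known, nothing is read from these counts. Leaving out 1 library gave 7 to 9 lower members in NGP and 4 to 5 in CHLA-20, and DESeq2, which gave EGR4 no adjusted p in NGP, called 6 lower in NGP and 4 in CHLA-20.

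**Figure D3:**
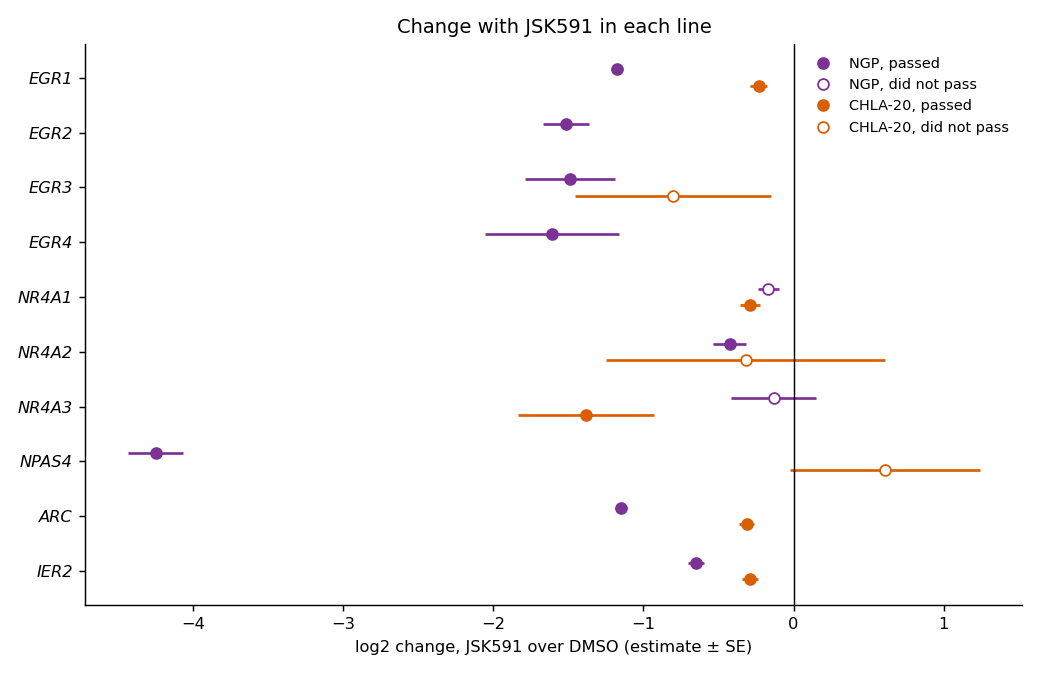
Log2 change with JSK591 over DMSO for each member (points, edgeR estimate, and bars, SE), with NGP and CHLA-20 in separate colours. EGR2 and EGR4 are left out in CHLA-20, where a group had 0 counts. The CHLA-20 values of EGR3, NR4A2 and NPAS4 rest on few counts. NPAS4 in NGP lies at -4.25, EGR1 to EGR4 and ARC in NGP between -1.61 and -1.15, and the CHLA-20 values of EGR1, NR4A1, ARC and IER2 between -0.31 and -0.23.

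The difference of the 2 treatment effects, NGP minus CHLA-20, was called lower for 5 of the 10 genes and higher for 0, where 12.5% of all genes tested were called lower and 15.2% higher. One of the 5, EGR4, passed the filter on low counts only through NGP with DMSO, which favoured a lower difference, so its call adds nothing. Since the members were chosen with such results known, nothing is read from this count. It was -0.94 ± 0.070 for EGR1, -0.84 ± 0.065 for ARC and -0.36 ± 0.076 for IER2. For NPAS4 it was -4.86 ± 0.73, with few counts on the CHLA-20 side. For EGR4 it was called on 2 and 2 against 0 and 0 counts in CHLA-20, its fitted value depends on the prior count, and it did not pass without any 1 of the 4 CHLA-20 libraries. EGR2 and the NR4A genes did not pass, and neither did EGR3 (-0.68 ± 0.78), which does not show that their changes were alike in the 2 lines.

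Between the lines without inhibitor, 9 of the 10 genes were called higher in NGP with DMSO than in CHLA-20 with DMSO and 1 lower, where 36.6% and 38.9% of all genes tested were called higher and lower. EGR2, EGR3, EGR4, NR4A2 and NPAS4 passed the filter on low counts only through NGP, which favoured a higher value there, so their calls add nothing. EGR1 was 9.31 times as high in NGP with DMSO, ARC 4.28 times, EGR3 8.51 times, NR4A3 2.05 times and IER2 1.38 times. EGR2, NR4A2 and EGR4 had 474, 672 and 54 counts over the 2 NGP DMSO libraries, against 4, 5 and 0 counts over the 2 CHLA-20 DMSO libraries. For EGR4 that is at least 18.2-fold higher, with a floor of 3 counts over the group. NR4A1 was the member called lower (-0.20 ± 0.067), and it no longer passed without the second CHLA-20 DMSO library (-0.14 ± 0.083), without the first NGP DMSO library (-0.075 ± 0.080) or with DESeq2 (-0.18 ± 0.099). NR4A3 did not pass with DESeq2 (1.05 ± 0.51).

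The ratio between the lines with inhibitor was lower than with DMSO for some members and higher for others. With JSK591, EGR1 was 4.84 times as high in NGP as in CHLA-20, ARC 2.39 times, EGR3 5.34 times and IER2 1.08 times. NR4A1 was 0.948 times as high, against 0.872 times with DMSO, and NR4A3 was 4.91 times as high, against 2.05 times with DMSO. For NR4A1 (0.12 ± 0.097) and NR4A3 (1.25 ± 0.54) the difference of effects did not pass, so a higher ratio is not established. Neither did that of EGR3 (-0.68 ± 0.78) pass, so its lower ratio is not established either. The treatment contrasts, their difference and the line contrast share the DMSO libraries, so these values stand side by side and are not independent of each other.

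Related genes were counted from lists written from general knowledge. The counts of every list below stand beside 16.8% of all genes tested called higher and 19.4% lower in NGP, and 16.9% higher and 22.4% lower in CHLA-20, and nothing particular to a list is read from them. Of 8 genes of the AP-1 factor, which pairs FOS and JUN proteins, 1 was higher and 6 were lower in NGP. In CHLA-20 0 were higher and 4 lower. FOSB fell by 2.31 ± 0.14 on the log2 scale in NGP, with a mean of 2.42 CPM with JSK591 against 12.0 CPM with DMSO. FOS fell by 1.15 ± 0.050 in NGP and by 2.34 ± 0.091 in CHLA-20, the reverse of EGR1 in which line had the larger decrease, and the difference between the lines passed for FOS (1.19 ± 0.11). JUN was at -1.179 ± 0.0395 in NGP and at -1.091 ± 0.0438 in CHLA-20, and its difference between the lines did not pass (-0.088 ± 0.0588). FOSL2, a FOS-related protein, rose by 0.69 ± 0.081 in NGP. The median of this list was -0.64 in NGP, beside 0.00 over all genes tested, and -0.60 in CHLA-20, beside -0.02 over all genes tested.

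Of 33 other immediate-early genes tested (35 listed), 3 were higher and 20 lower in NGP, and 6 were higher and 13 lower in CHLA-20. The median was -0.30 in NGP and -0.11 in CHLA-20. In NGP the matricellular protein gene CYR61 fell by 1.47 ± 0.099, the zinc finger factor KLF6 by 1.18 ± 0.051 and the stress phosphatase subunit PPP1R15A by 1.00 ± 0.058. In CHLA-20 TIPARP fell by 0.96 ± 0.072, the mRNA decay factor ZFP36 by 0.92 ± 0.16 and the clock gene PER1 by 0.91 ± 0.051, while the transcriptional repressor HES1 rose by 1.02 ± 0.25. The list held genes of both directions in both lines.

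The factors that bind the promoter motifs were compared at the mRNA level. Of 6 genes for SRF and its cofactors, 0 were higher and 1 lower in NGP, where SRF fell by 0.23 ± 0.043. In CHLA-20 1 was higher and 1 lower, with MRTFB up by 0.22 ± 0.060 and ELK4 down (-0.34 ± 0.062). Of 10 genes for CREB, MEF2 and their coactivators, 1 was higher and 6 were lower in NGP, with CRTC2 at -0.52 ± 0.046, ATF1 at -0.46 ± 0.078 and MEF2D at -0.41 ± 0.039. In CHLA-20 1 was higher and 4 were lower, with CRTC2 at -0.26 ± 0.054. The activity of these proteins was not measured.

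Of 15 genes for RAS, RAF, MEK, ERK and the kinases RSK and MSK that were tested (16 listed), 1 was higher and 5 were lower in NGP, and 1 was higher and 7 were lower in CHLA-20. In NGP the ERK gene MAPK3 was at -0.28 ± 0.047. In CHLA-20 MAP2K2, a MEK gene, was at -0.28 ± 0.039. The 9 feedback inhibitors of ERK, many of them induced by ERK activity, were all tested. In NGP 2 were higher and 1 lower, with SPRED2 at 0.30 ± 0.057 and DUSP4 at 0.28 ± 0.049. In CHLA-20 6 were higher and 0 lower, with SPRY1 at 1.11 ± 0.12, SPRY2 at 0.96 ± 0.071, the ERK phosphatase DUSP6 at 0.86 ± 0.041 and SPRY4 at 0.72 ± 0.061. The difference of effects was called lower for 5 of the 9 and higher for 1, where 12.5% of all genes tested were called lower and 15.2% higher. Among the lower were SPRY1 (-1.01 ± 0.20), SPRY2 (-1.14 ± 0.11), DUSP6 (-0.81 ± 0.17) and SPRY4 (-0.93 ± 0.14). DUSP6 and SPRY4 were low in NGP, at 2.38 and 4.5 CPM with DMSO.

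Of 18 genes for calcium channels, calmodulins, calmodulin kinases and calcineurin that were tested (19 listed), 3 were higher and 4 lower in NGP, and 5 were higher and 7 lower in CHLA-20. CACNA1C, an L-type calcium channel gene, was at -0.31 ± 0.091 in NGP, where the calmodulin kinase gene CAMK2B was at 0.41 ± 0.13. In CHLA-20 CAMK4, which phosphorylates CREB, rose by 0.66 ± 0.043 and the calcineurin gene PPP3CA by 0.54 ± 0.040. There the calcineurin gene PPP3CC was at -0.37 ± 0.079. The calcium channel gene CACNA1H was at -1.85 ± 0.58 in CHLA-20, from low means of 0.0879 CPM with JSK591 against 0.326 CPM with DMSO. Of 5 partners and corepressors tested (6 listed), 1 was higher and 1 lower in NGP, and 0 were higher and 4 lower in CHLA-20. ARNT, a dimer partner of NPAS4, was at -0.49 ± 0.039 in NGP and at -0.47 ± 0.044 in CHLA-20, while ARNT2, its other partner, rose by 0.40 ± 0.048 in NGP. NAB2, a corepressor of EGR proteins, fell by 0.25 ± 0.055 in CHLA-20.

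Effectors that neurons induce after activity were mixed. Of 18 tested (19 listed), 4 were higher and 4 lower in NGP, and 6 were higher and 2 lower in CHLA-20. In NGP NPTX1 was at 0.66 ± 0.17 and the secreted peptide precursor VGF at 0.64 ± 0.061, while GADD45G was at -0.63 ± 0.084 and NRN1 at -0.62 ± 0.053. In CHLA-20 SYT4, a synaptotagmin, was at 1.06 ± 0.037 and the neuropeptide gene NPY at 0.59 ± 0.036. Of 10 heat shock genes tested (12 listed), counted as a list of stress-induced genes, 1 was higher and 6 lower in NGP, with DNAJB1 at -1.60 ± 0.041. In CHLA-20 7 were higher and 3 lower, with HSPH1 at 0.79 ± 0.040. The part of these changes in those of the 10 genes was not tested.

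**Figure D4:**
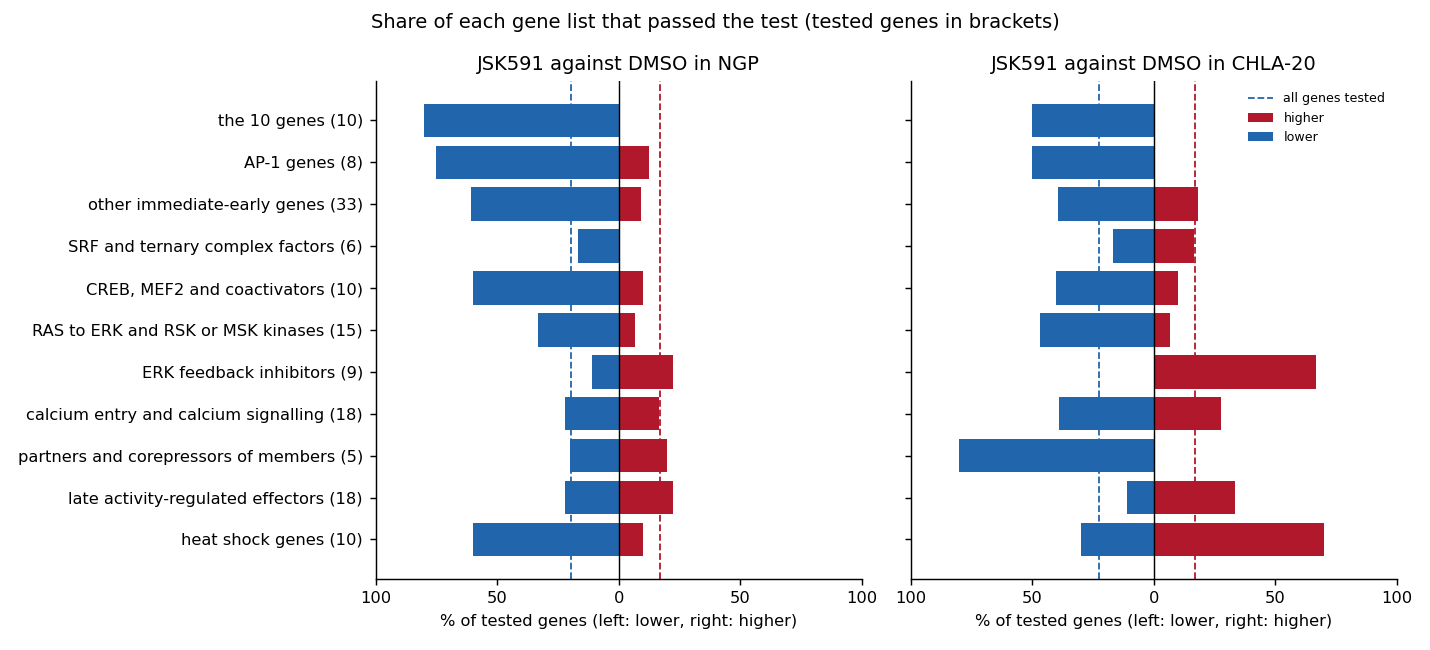
Percent of the tested genes of each list that were called higher or lower with JSK591, for NGP and CHLA-20 in separate panels, with the number tested in brackets. In NGP 20 of 33 other immediate-early genes are called lower and 3 higher, and in CHLA-20 6 of 9 ERK feedback inhibitors are called higher and 0 lower.

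Genes whose profile over the 8 libraries was nearest to a member's were ranked, with the 10 genes themselves left out, among 14466 candidates by the root mean square difference of centred log2 CPM. For EGR1 the nearest gene outside the 10 was CYR61, with a difference of 0.138, and then MITF (0.213), ID4 (0.231), IGFBP4 (0.266) and INSM2 (0.277). CYR61 averaged 6.16 CPM in NGP with JSK591, against 17.0 CPM in NGP with DMSO. In CHLA-20 it averaged 1.4 CPM with JSK591, against 1.9 CPM with DMSO. For NPAS4 the nearest gene outside the 10 was FOSB, at a much larger difference of 1.0, and then CYR61 (1.24), AF131216.1 (1.24), MSX2 (1.28) and LINC02525 (1.28). Measured the same way, the nearest member to EGR1 was EGR3 (0.267) and the nearest to NPAS4 was EGR4 (1.2), followed by EGR1 (1.27). For the mean profile of the 10 genes the nearest genes outside them were CYR61 (0.131), MITF (0.194), ID4 (0.208), AL133163.3 (0.265) and IGFBP4 (0.27). Most of the spread in these profiles lies between the lines, and the 8 libraries fall into 4 groups of 2, so the likeness is a description.

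**Figure D5:**
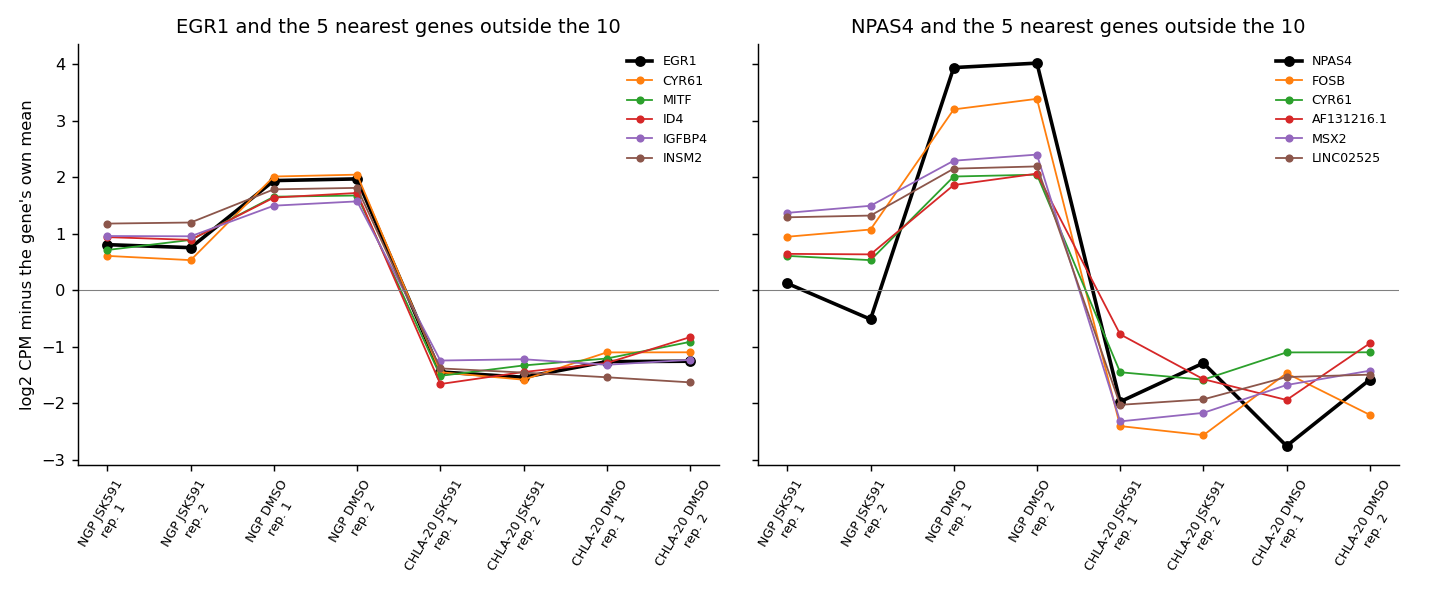
Centred log2 CPM over the 8 libraries for EGR1 and NPAS4 (black), each with its 5 nearest genes outside the 10 members; lines join libraries only to show which points belong to a gene. CYR61 follows EGR1 at a difference of 0.138, and FOSB lies at 1.0 from NPAS4.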

How the data were processed

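Per the labels' protocols, messenger RNA was enriched and sequenced with DNBseq. The files the authors deposited hold raw counts of reads for each gene and library; STAR, HTSeq, DESeq2 and GRCh38 (hg38) are named per the submitters' processing notes, and their versions and roles, the gene models and whether strand was used are not given in the sources used here. Reads outside genes were 5.15% to 6.86% of counted reads and ambiguous ones 6.77% to 7.18%. These rows were left out.

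The members and lists were chosen with earlier results of these data known. Counts were tested with the quasi-likelihood test of edgeR 4.0.16 (limma 3.58.1, R 4.3.3) in 1 model of 4 group means over all 8 libraries, after filterByExpr (19395 genes) and TMM scaling. The residual degrees of freedom were 4. Each edgeR SE was worked back from the log2 change and the F statistic of its test. P-values were Benjamini-Hochberg adjusted over all genes tested, with a threshold of 0.05. CPM are TMM-scaled, and TPM use GENCODE 29 exon lengths; tables were made with Python 3.11.15. Profiles used a prior count of 2. Genes named from a list were those called, with at least 1 CPM on average, and up to 4 with the largest change. Alternatives were other scalings, DESeq2 1.42.0, no filter, each line alone, a replicate block and leaving out each library. The pipeline was tested on simulated data. Floors reflect counting error alone, because PCR copies were not marked by molecular identifiers.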

Additional observations from a re-analysis of the deposited data

Results flagged for a closer look

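For 5 of the 10 genes the JSK591 effect in NGP differed from that in CHLA-20 by the test of the difference in edgeR (adjusted p under 0.05 over all genes), and for that reason they are listed here; 12.5% of all genes tested were called lower and 15.2% higher by the same test. The difference, NGP minus CHLA-20 on the log2 scale, was -0.94 for EGR1, -4.86 for NPAS4, -0.84 for ARC and -0.36 for IER2. For EGR4 it was -5.69, a fitted value that rests on 4 counts with JSK591 against 0 counts with DMSO in CHLA-20 and depends on the prior count. All 5 genes were lower with JSK591 than with DMSO in both NGP libraries. The genes were chosen with results of these libraries known, and EGR4 entered the test only through NGP with DMSO, which favoured a lower difference. Groups of 2 libraries are too small for a check of single libraries that stand apart.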

How the results depend on the processing

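No alternative reversed the sign of a called change. With DESeq2, 1806 genes were called higher in NGP, against 3266 with edgeR, and 1641 genes had a higher difference of effects, against 2950. The 1 member called lower between the lines, NR4A1, became 0 with DESeq2 and 0 to 1 when 1 library was left out. Over the members, calls lower ranged from 7 to 9 in NGP, 4 to 5 in CHLA-20 and 4 to 5 for the difference of effects when 1 library was left out. Among single members, NR4A3 in CHLA-20, NR4A1, NR4A2 and EGR4 in NGP, the EGR4 difference and the line contrasts of NR4A1 and NR4A3 changed side of the threshold, as given with each gene; the cause was not tested. Deviations from the group means showed no strong sharing between same-numbered libraries (correlations -0.027 to 0.012). These correlations cover all genes tested, where counting noise can hide a weaker shared part, so a pairing is not excluded. With the replicate block, 8 members were lower in NGP and 5 in CHLA-20, as without it, and 3757 genes were lower in NGP, against 3755. Other scalings moved the median change of all genes by less than 0.1 on the log2 scale. EGR2, EGR4 and NR4A2 in CHLA-20 had at most 3 counts in a library, so a decrease there was not detectable at this depth.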
